A study of Elaeis guineensis with 18 samples.

Results

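LOC105044840, LOC105046002 and LOC105052314 are oil palm (Elaeis guineensis) genes that the study annotated to regulation of the defense response to fungus, and their RNA was measured here in leaves under 5 abiotic stresses and a control. They are 3 of the 30606 genes in the tables, which hold them by the gene numbers 105044840, 105046002 and 105052314. The study listed 7 genes for this annotation term, out of 11 that carry it, because they were differentially expressed under drought against control in these same libraries. The 3 genes had the largest increases of the 7 under drought, so they were chosen by their drought and control levels, and their drought values are given as a description without a test. All 3 are protein-coding with 1 RefSeq transcript each in the EG11 assembly, and the sources used here do not say what each protein is or does. The lengths that the deposited values imply are 2988 bases for LOC105044840, 2804 bases for LOC105046002 and 2945 bases for LOC105052314.

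Plants sense fungi at the cell surface, where receptor kinases bind chitin and other fragments of the fungal wall. The signal passes through calcium influx, reactive oxygen and mitogen-activated protein kinase cascades to transcription factors such as the WRKY family, and salicylic acid and jasmonic acid set the balance of the response. Genes annotated as regulators of this response act on the strength or timing of these steps, as activators or as repressors, and the annotation term does not say which. Abscisic acid, the hormone that rises when a leaf loses water, is known to interact with these pathways, and many defense genes of other plants also respond to drought, salt or temperature.

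The seedlings were wild-type Deli Dura palms, 6 months old, kept for 1 month at 28°C and then treated for 2 weeks. Drought seedlings received no water, salinity seedlings 200 mL of 0.2 M NaCl daily, and waterlogging (flood in the labels) kept water 1 inch above the soil, all at 28°C. Heat seedlings at 40°C, cold seedlings at 10°C and control seedlings at 28°C received 200 mL of water daily. Each of the 6 groups has 3 libraries, and each library was made from the leaf in the third position of 3 pooled seedlings, so spread between seedlings within a library is not seen.

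The 18 libraries held 14839345 to 22126971 counted reads, with 24723 to 26402 genes detected. Rank correlations of gene counts were 0.969 to 0.989 between libraries of one group and 0.938 to 0.986 between groups. The 21 genes that the study listed for light harvesting, the antenna proteins of green tissue, took 1.85% to 11.3% of the reads, so leaf RNA was present in every library. Their share was 1.85% to 2.32% in cold, 8.34% to 11.3% in waterlogging and 3.05% to 5.90% in control libraries, and the scaling factors also separated cold (1.352 to 1.359) from waterlogging (0.783 to 0.880). The part of the light-harvesting share in the results was not tested, and values with library totals in place of these factors are given where they change a call. Levels are given in CPM, the reads of a gene scaled to the library's TMM-adjusted total, and in FPKM, which also divides by gene length, where genes of different length are compared.

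The 3 genes were high in leaves under drought, salinity and waterlogging, intermediate under heat, and low in cold and control leaves. LOC105044840 and LOC105046002 reached similar levels per length under drought, whereas LOC105052314 was the weakest of the 3 in every group. Mean FPKM under drought, salinity, waterlogging, heat, cold and control was 35.7, 22.7, 17.3, 9.61, 1.52 and 2.14 for LOC105044840. In the same order it was 33.6, 37.8, 23.9, 17.9, 9.26 and 3.86 for LOC105046002. It was 4.91, 3.07, 2.80, 2.05, 0.838 and 1.31 for LOC105052314. Averaged over the groups, these FPKM levels exceeded those of 67.7%, 75.9% and 27.3% of the 23830 genes tested, with the genes named in the same order. Read counts ran between 77 and 2512 per library for LOC105044840, between 175 and 2728 for LOC105046002, and between 36 and 329 for LOC105052314, so the last has the least depth behind it, above all in cold leaves. In whole leaves, fewer cells of a type and less RNA per cell cannot be told apart.

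**Figure D1:**
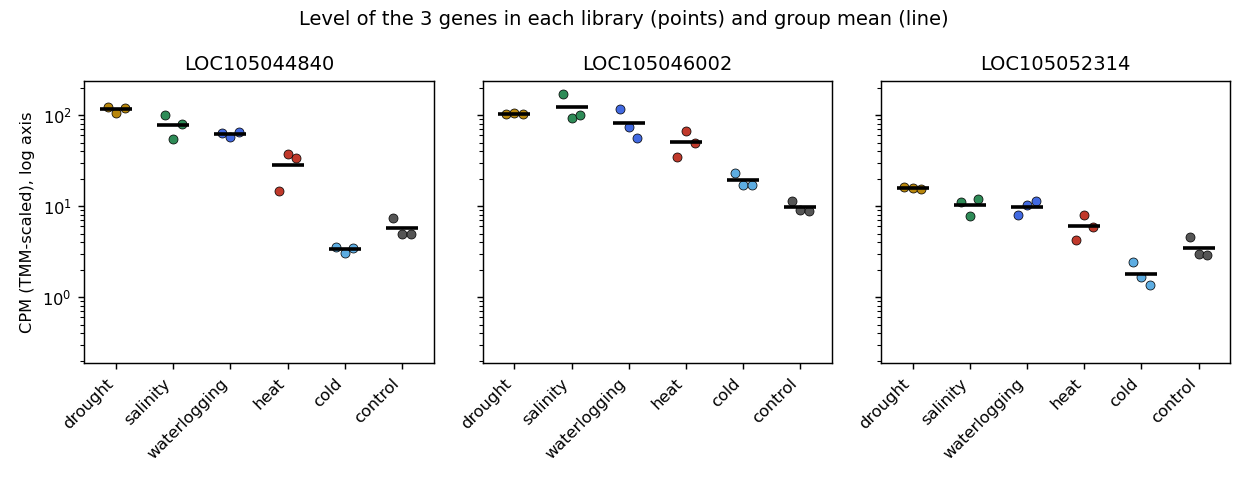
Level of each gene in the 18 libraries, in TMM-scaled CPM on a log axis, with points for libraries and a line for the mean of each group of 3. LOC105044840 lies between 105.8 and 124.1 CPM under drought, against 4.89 to 7.50 CPM in control leaves, and cold is the lowest group for LOC105044840 and LOC105052314 but not for LOC105046002.

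LOC105044840 showed the widest range of the 3 genes on the log2 scale, with 5.12 between drought and cold. Its drought libraries had 124.1, 105.8 and 121.1 CPM and its salinity libraries 99.5, 54.3 and 79.9 CPM. Waterlogging gave 64.1, 57.1 and 65.4 CPM, heat 14.5, 37.4 and 33.9 CPM, cold 3.54, 3.05 and 3.46 CPM, and control 7.50, 4.89 and 4.91 CPM. From high to low, its group means were 117 ± 9.83 CPM in drought, 77.9 ± 22.7 CPM in salinity, 62.2 ± 4.48 CPM in waterlogging, 28.6 ± 12.3 CPM in heat, 5.76 ± 1.50 CPM in control and 3.35 ± 0.259 CPM in cold (SD, n = 3 each). Salinity and waterlogging overlapped, and no other neighbours in this order did. Heat replicate 1 was the lowest heat library, at 14.5 CPM against 37.4 and 33.9 CPM, yet lay above every control library.

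LOC105046002 had similar levels in drought and salinity leaves, and which of the 2 had the higher mean rested on 1 library. Drought libraries had 103.6, 104.5 and 102.1 CPM, salinity libraries 171.3, 93.6 and 100.8 CPM, and waterlogging libraries 116.2, 73.9 and 55.4 CPM. Heat gave 34.3, 67.5 and 49.5 CPM, cold 23.3, 17.2 and 17.0 CPM, and control 11.4, 9.05 and 8.86 CPM. The group means were 122 ± 42.9 CPM in salinity, 103 ± 1.22 CPM in drought, 81.8 ± 31.2 CPM in waterlogging, 50.4 ± 16.6 CPM in heat, 19.2 ± 3.56 CPM in cold and 9.76 ± 1.40 CPM in control (SD, n = 3 each). Neighbouring groups overlapped all the way down to heat, while heat lay clear of cold and cold clear of control. The coefficient of variation was 1.18% under drought, 14.3% in control, 18.6% in cold, and 33.0% to 38.1% under salinity, waterlogging and heat. Each of these values rests on 3 libraries. Salinity replicate 1 was the highest library of all for this gene, the other salinity libraries lay below every drought library, and without it the log2FC of drought against salinity was 0.09, of the opposite sign to the −0.24 with all libraries.

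LOC105052314 followed the order of LOC105044840 at lower levels and over a smaller range. Drought libraries had 16.3, 15.8 and 15.6 CPM, salinity libraries 11.1, 7.83 and 12 CPM, and waterlogging libraries 7.99, 10.3 and 11.3 CPM. Heat gave 4.23, 7.95 and 5.95 CPM, cold 2.44, 1.67 and 1.35 CPM, and control 4.53, 2.98 and 2.89 CPM. The group means were 15.9 ± 0.358 CPM in drought, 10.3 ± 2.20 CPM in salinity, 9.85 ± 1.68 CPM in waterlogging, 6.04 ± 1.87 CPM in heat, 3.47 ± 0.922 CPM in control and 1.82 ± 0.562 CPM in cold (SD, n = 3 each). Salinity overlapped waterlogging and heat overlapped control, whereas drought lay above salinity, waterlogging just above heat, and control above cold.

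Drought against control is the contrast by which the genes were listed. The log2 fold change (log2FC, from a quasi-likelihood model of the counts in edgeR) was 4.34 (SE 0.32) for LOC105044840, a 20.3-fold difference, 3.40 (SE 0.31) for LOC105046002, a 10.6-fold difference, and 2.19 (SE 0.26) for LOC105052314, a 4.57-fold difference. All 3 passed an adjusted p of 0.05 and a 2-fold change in the study's own DESeq test, by construction of the list. In the edgeR fit used here, 17.7% of all genes tested passed these thresholds, 10.7% upward. The next gene of the list, LOC105040731, had a log2FC of 1.54, so it lies just outside the 3.

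Salinity and waterlogging raised all 3 genes relative to control. Under salinity, LOC105044840 changed by a log2FC of 3.75 (SE 0.31, adjusted p = 5.79e-07), LOC105046002 of 3.64 (SE 0.32, adjusted p = 8.26e-07) and LOC105052314 of 1.57 (SE 0.26, adjusted p = 0.000221). Of all genes tested, 10.5% were called higher and 15.5% in either direction, with a call at an edgeR adjusted p under 0.05 and at least 2-fold. The median log2FC of the 3 genes was 3.64, and that of all genes was −0.04. Under waterlogging the log2FC was 3.43 (SE 0.31, adjusted p = 9.15e-07) for LOC105044840, 3.07 (SE 0.31, adjusted p = 2.26e-06) for LOC105046002 and 1.50 (SE 0.26, adjusted p = 0.000264) for LOC105052314, against 12.1% of all genes called higher and 19.6% in either direction. In both stresses every library of each gene lay above every control library. How many of all genes showed no overlap was not counted. Of the 23830 genes tested, 11874 under salinity and 12839 under waterlogging had an edgeR p under 0.05 before adjustment, in either direction. The increases of LOC105052314 fell below the 2-fold minimum when the test was made on log2(FPKM + 1), at 0.82 under salinity and 0.72 under waterlogging, a scale that understates changes of low genes. These contrasts share their 3 control libraries with the contrast that chose the genes, so a low control level enters all of them.

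Heat raised LOC105044840 and LOC105046002 but left LOC105052314 short of the fold minimum. The log2FC against control was 2.31 (SE 0.30, adjusted p = 1.63e-05), or 4.96-fold, for LOC105044840 and 2.37 (SE 0.30, adjusted p = 1.45e-05), or 5.16-fold, for LOC105046002. The log2FC of LOC105052314 was only 0.80 (SE 0.26, adjusted p = 0.0191), and its heat and control libraries overlapped. It passed the minimum at 1.02 without heat replicate 1 and at 1.04 without control replicate 1. Of all genes tested, 11.5% were called higher under heat and 20.1% in either direction.

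Cold was the stress in which the 3 genes parted. Relative to control, LOC105046002 stood at a log2FC of 0.97 (SE 0.30, 95% interval 0.34 to 1.60, adjusted p = 0.0115), LOC105044840 of −0.78 (SE 0.31, interval −1.45 to −0.12, adjusted p = 0.0443) and LOC105052314 of −0.92 (SE 0.27, interval −1.51 to −0.34, adjusted p = 0.00996). None reached the 2-fold minimum and so 0 of 3 were called, against 25% of all genes tested. For each gene the 3 cold libraries did not overlap the 3 control libraries, on the upper side for LOC105046002 and on the lower side for LOC105044840 and LOC105052314. How many of all genes showed no overlap was not counted. Of the 23830 genes tested, 14331 had an edgeR p under 0.05 before adjustment in this contrast. The labels state no pairing, but deviations of cold and control libraries of equal number had correlations of 0.190, 0.223 and 0.105. With the replicate number as a block, as an alternative, the adjusted p was 0.0582 for LOC105044840, 0.00906 for LOC105046002 and 0.0168 for LOC105052314. That block was shared by all 6 groups, so these values are no paired test of cold against control. The size of these differences moved with the scaling. When library totals replaced the TMM factors, which lifts the median of all genes in cold to 0.31, LOC105046002 stood at 1.26 (adjusted p = 0.000941) and was called, LOC105044840 at −0.49 (adjusted p = 0.186) and LOC105052314 at −0.64 (adjusted p = 0.0662). Single libraries also moved them past the minimum: LOC105046002 reached 1.04 without cold replicate 2, 1.05 without cold replicate 3 and 1.10 without control replicate 1, and LOC105052314 reached −1.20 without cold replicate 1, −1.02 without control replicate 2 and −1.04 without control replicate 3. Leaving out 1 library also took the adjusted p above 0.05 in several runs. For LOC105044840 it was 0.0747, 0.112 and 0.0819 without cold replicates 1, 2 and 3, and 0.195 without control replicate 1. Leaving out some libraries of other groups did the same for this gene. Its adjusted p was 0.0521, 0.0513 and 0.0528 without drought replicates 1, 2 and 3, and 0.0527 without salinity replicate 3. Without waterlogging replicates 1, 2 and 3 it was 0.0523, 0.0516 and 0.0526. The adjusted p was 0.0633 for LOC105052314 without control replicate 1 and 0.0504 for LOC105046002 without cold replicate 1. Limma on log2(FPKM + 0.1) and log2(FPKM + 1) gave 0.218 and 0.334 for LOC105044840. It gave 0.0749 and 0.13 for LOC105052314, and 0.000836 and 0.00159 for LOC105046002. The signs were the same in every alternative run.

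**Figure D2:**
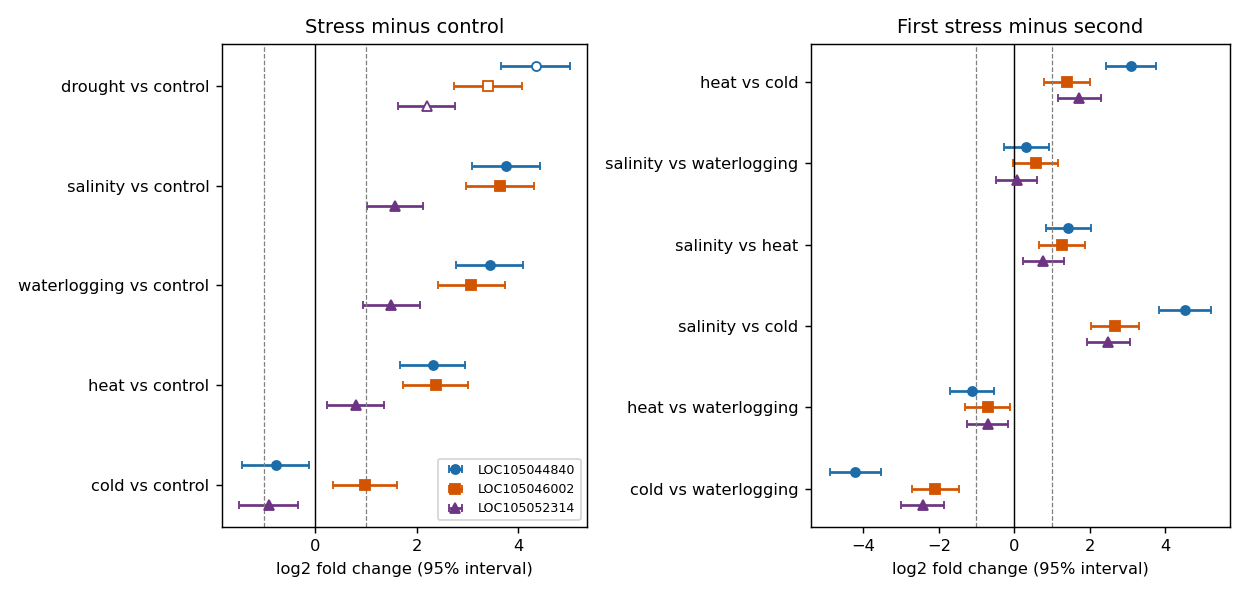
Log2 fold change of each gene, with its 95% interval, for the 5 stresses against control (left) and for the 6 pairs of stresses that use neither drought nor control libraries (right). Dashed lines mark the 2-fold minimum and open symbols the drought contrast, which chose the genes; LOC105046002 lies above 0 and the other two below 0 in cold against control, and all 3 intervals for salinity against waterlogging span 0.

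The 6 contrasts among salinity, waterlogging, heat and cold use no library of the contrast that chose the genes. Cold stood apart in them. All 3 genes were higher in heat than in cold leaves, by a log2FC of 3.09 (SE 0.31, adjusted p = 1.16e-06) for LOC105044840, 1.40 (SE 0.29, adjusted p = 0.000911) for LOC105046002 and 1.73 (SE 0.27, adjusted p = 8.55e-05) for LOC105052314, with no overlap of libraries, while 12.3% of all genes tested were called higher and 22.1% in either direction. How many of all genes showed no overlap was not counted, and 13491 of the 23830 tested had an edgeR p under 0.05 before adjustment. The call of LOC105046002 in heat against cold was lost with library totals (0.95, adjusted p = 0.0053). All 3 were also higher in salinity than in cold leaves, with log2FC of 4.54 for LOC105044840 (SE 0.32, adjusted p = 6.7e-08), 2.67 for LOC105046002 (SE 0.30, adjusted p = 3.5e-06) and 2.49 for LOC105052314 (SE 0.27, adjusted p = 2.57e-06), beside 13.3% of all genes called higher and 23.3% in either direction. They were lower in cold than in waterlogging leaves, with log2FC of −4.21 (SE 0.32, adjusted p = 9.79e-08), −2.09 (SE 0.29, adjusted p = 2.69e-05) and −2.43 (SE 0.27, adjusted p = 3.21e-06) for the genes in the same order, beside 13.6% of all genes called lower and 24.8% in either direction.

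Salinity and waterlogging could not be told apart by any of the 3 genes. The log2FC was 0.32 for LOC105044840 (95% interval −0.26 to 0.91, adjusted p = 0.56), 0.57 for LOC105046002 (−0.03 to 1.17, adjusted p = 0.302) and 0.07 for LOC105052314 (−0.47 to 0.60, adjusted p = 0.916), and the libraries overlapped in each case. Of all genes tested, edgeR called 0.621%, or 148 genes, with 4260 at an unadjusted p under 0.05 and 397 called by DESeq2. That count was 63 without salinity replicate 2, 62 without salinity replicate 3, 72, 52 and 630 without waterlogging replicates 1, 2 and 3, and 9 with these groups fitted alone. The intervals leave room for a 2-fold difference in LOC105046002 only.

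Salinity exceeded heat in LOC105044840 (log2FC 1.44, SE 0.28, adjusted p = 0.000917) and LOC105046002 (1.27, SE 0.29, adjusted p = 0.00273), against 7.56% of all genes called higher and 14.1% in either direction. The log2FC of LOC105052314 was 0.77 (SE 0.25, adjusted p = 0.0256), which was not called. Without salinity replicate 1 the difference of LOC105046002 was 0.95 and fell under the minimum, and without heat replicate 2 that of LOC105052314 was 1.02 and passed it. Heat was lower than waterlogging in LOC105044840 (−1.12, SE 0.28, adjusted p = 0.0049), beside 8.13% of all genes called lower and 16% in either direction, and that call was lost without heat replicate 1 (−0.78, adjusted p = 0.011) and with library totals (−0.85, adjusted p = 0.0198). LOC105046002 had −0.70 (SE 0.28, adjusted p = 0.0627) and LOC105052314 had −0.70 (SE 0.25, adjusted p = 0.0383), neither of them called.

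The drought libraries chose the genes, and their differences from the other stresses are therefore given without a test. Against salinity the log2FC was 0.59 (SE 0.27) for LOC105044840, −0.24 (SE 0.28) for LOC105046002 and 0.62 (SE 0.25) for LOC105052314. Against waterlogging it was 0.91, 0.34 and 0.69, against heat 2.03, 1.03 and 1.39, and against cold 5.12, 2.43 and 3.12, with the genes in the same order. Drought and salinity libraries overlapped only for LOC105046002, whose difference was 0.09 without salinity replicate 1. Drought and waterlogging libraries likewise overlapped only for LOC105046002. The share of all genes without overlap was not counted for these pairs of groups.

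The ratio of FPKM between the genes within a library does not depend on how libraries are scaled, and its mean varied among the groups. It is compared without a test where drought or control libraries enter, since those libraries chose the genes. LOC105044840 stood at 1.06 ± 0.0977 of the FPKM of LOC105046002 under drought, 0.611 ± 0.115 in salinity, 0.784 ± 0.300 in waterlogging, 0.520 ± 0.123 in heat, 0.167 ± 0.0242 in cold and 0.549 ± 0.0612 in control leaves (SD, n = 3 each). The 3 cold libraries lay between 0.143 and 0.191, below every other library. The cold group differed from salinity, heat and waterlogging by log2 ratios of 1.87 (salinity minus cold), 1.62 (heat minus cold) and −2.17 (cold minus waterlogging). An exact two-sided permutation test gave p = 0.1 for each, the smallest that 3 against 3 libraries allow, and 0.225 after adjustment over 18 such ratio comparisons, so this test could not pass the threshold with groups of 3.

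Against LOC105052314 a different split appeared. The FPKM of LOC105044840 was 7.27 ± 0.577 times that of LOC105052314 under drought, 7.41 ± 1.23 times in salinity, 6.36 ± 1.34 times in waterlogging, 4.55 ± 1.12 times in heat, 1.92 ± 0.554 times in cold and 1.64 ± 0.0325 times in control leaves. LOC105046002 exceeded LOC105052314 by 6.85 ± 0.138 times under drought, 12.5 ± 3.69 in salinity, 9.32 ± 5.29 in waterlogging, 8.73 ± 0.199 in heat, 11.4 ± 1.65 in cold and 3.02 ± 0.329 in control leaves (SD, n = 3 each). In this last ratio every stress library lay above every control library, cold included, whereas the ratio of LOC105044840 to LOC105052314 overlapped between cold and control. These comparisons with control were not tested.

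**Figure D3:**
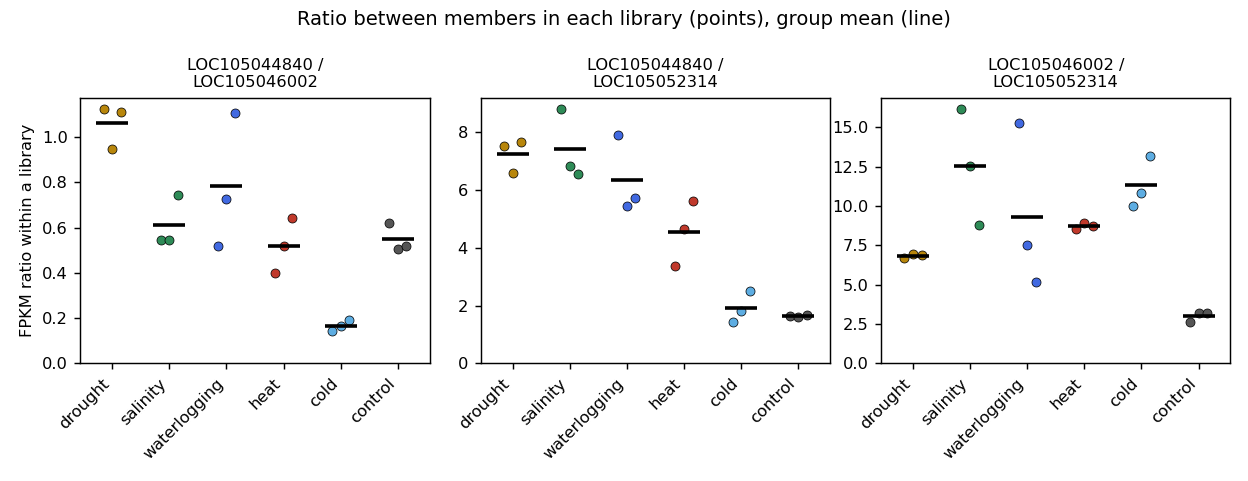
Ratio of FPKM between pairs of the 3 genes within each library, with points for libraries and a line for the group mean, on linear axes from 0. In the left panel the cold libraries lie at 0.143 to 0.191, below all others; in the right panel the control libraries lie at 2.64 to 3.23, below all others.

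Across the 18 libraries the log2 CPM of LOC105044840 and LOC105052314 had a Pearson correlation of 0.970, of LOC105044840 and LOC105046002 0.926, and of LOC105046002 and LOC105052314 0.842. These values are a description, since the libraries fall into 6 groups and share their scaling. Deviations from the group means, which leave out the treatments, had correlations of 0.730, 0.676 and 0.427 for the same pairs. Heat replicate 1 was the lowest heat library for all 3 genes, by −0.86, −0.50 and −0.46 on the log2 scale for LOC105044840, LOC105046002 and LOC105052314.

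Other genes followed each of the 3 more closely than these followed each other. The nearest are the highest of 23829 genes, whereas the 3 were fixed beforehand, so this is a description. By the same correlation over 18 libraries and 23829 other genes, LOC105046002 ranked 222nd for LOC105044840, and LOC105052314 ranked 43rd, while LOC105044840 ranked 6th for LOC105052314. Nearest to LOC105044840 were LOC105033244 (0.997), LOC105051874 (0.990) and LOC105035338 (0.987). LOC105033244 had mean levels of 248 CPM under drought, 187 in salinity, 151 in waterlogging, 71.4 in heat, 9.78 in cold and 13.1 in control leaves, the same order as LOC105044840. Without the drought and control libraries the correlations with these genes were 0.998, 0.990 and 0.988 over 12 libraries. Those 12 are among the 18 libraries by which these genes were picked, so the values are no independent check.

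Nearest to LOC105046002 were LOC105050967 (0.981), LOC105033256 (0.978) and LOC105043296 (0.977). Each of these also had a higher mean in cold than in control leaves: 73.8 ± 12.8 against 37.2 ± 4.28 CPM for LOC105050967, 4.40 ± 0.545 against 3.50 ± 0.709 CPM for LOC105033256, and 3.50 ± 1.48 against 2.20 ± 0.351 CPM for LOC105043296 (SD, n = 3 each). Nearest to LOC105052314 were LOC105037493 (0.982), LOC105060930 (0.977) and Novel00390 (0.975), a gene model that the authors added to the annotation. These were lower in cold, at 0.285 ± 0.202 against 0.964 ± 0.223 CPM in control leaves for LOC105037493, 8.72 ± 2.63 against 28.3 ± 5.55 CPM for LOC105060930, and 0.443 ± 0.0928 against 1.22 ± 0.595 CPM for Novel00390. The nearest genes were picked by correlation over libraries that include cold and control. A like direction in cold is therefore largely built in and is no separate finding. A correlation over 0.95 was reached by 105 genes for LOC105044840, 56 for LOC105046002 and 45 for LOC105052314.

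The other 4 genes that the study listed for the term did not share this order of groups. LOC105039539 and LOC105040731, both protein-coding, had their highest mean level in cold leaves. LOC105039539 had 9.04, 9.68 and 15.7 CPM under drought, 6.59, 7.18 and 7.14 in salinity, 4.13, 9.69 and 7.58 in waterlogging, 4.52, 3.23 and 4.10 in heat, 13.3, 11.03 and 14.5 in cold, and 5.13, 4.06 and 4.41 in control leaves. It rose in cold relative to control, by a log2FC of 1.51 (SE 0.26, adjusted p = 0.00018), and had a log2FC of −1.71 in heat against cold leaves (adjusted p = 7.7e-05), the reverse of the 3 genes, where 9.79% of all genes were called lower.

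LOC105040731 was expressed at a low level throughout, between 9 and 64 reads per library. Its mean was 1.54 CPM under drought, 1.23 in salinity, 1.71 in waterlogging, 0.690 in heat, 2.03 in cold and 0.525 in control leaves. It rose under salinity (log2FC 1.21, adjusted p = 0.00954), waterlogging (1.69, adjusted p = 0.000777) and cold (1.94, adjusted p = 0.000144), and was lower in heat than in cold (−1.55, adjusted p = 0.000839) and waterlogging leaves (−1.30, adjusted p = 0.00527). The salinity call was lost without salinity replicate 1 and with library totals.

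LOC105056043 and LOC105056045 went the other way, with their highest count in a control library. LOC105056043, a miscellaneous RNA in EG11, had 0, 0 and 1 reads under drought, 5, 74 and 16 in salinity, 0, 5 and 11 in waterlogging, 6, 5 and 6 in heat, 35, 5 and 10 in cold, and 95, 3 and 98 in control leaves. LOC105056045 had 3, 5 and 3 reads under drought, 87, 669 and 194 in salinity, 0, 99 and 171 in waterlogging, 95, 27 and 113 in heat, 648, 301 and 358 in cold, and 569, 31 and 976 in control leaves. Control replicate 2 had few reads of both. LOC105056043 was called lower under heat (log2FC −3.60, adjusted p = 0.0168) and waterlogging (−3.13, adjusted p = 0.0357), and LOC105056045 under heat (−2.84, adjusted p = 0.0401), although the heat counts exceeded those of control replicate 2 in all but 1 library. With leave-one-out fits, 0 to 2 of the 4 genes were called under heat, with 0 without heat replicate 2 and 1 without heat replicate 1, heat replicate 3, control replicate 1 or control replicate 3. Under waterlogging 1 was called without waterlogging replicate 1, waterlogging replicate 2, control replicate 1 or control replicate 3, against 2 with all libraries.

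**Figure D4:**
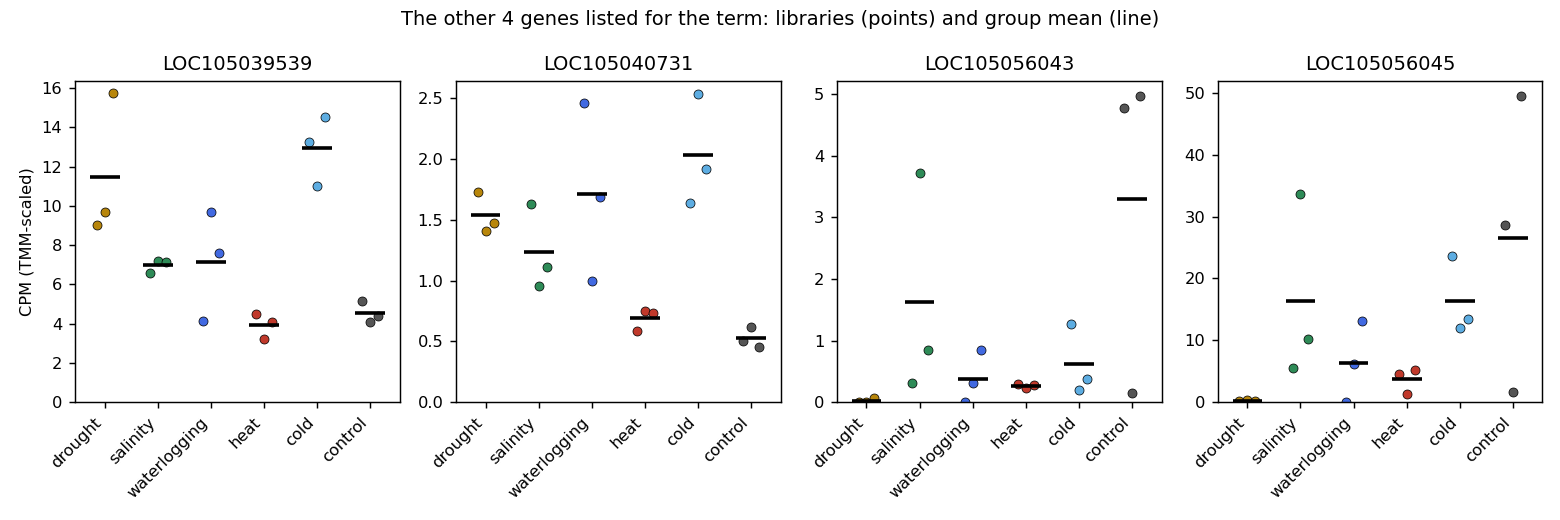
Level in TMM-scaled CPM of the other 4 genes listed for the term, with points for libraries and a line for the group mean, on a linear axis from 0 for each gene. LOC105039539 has 11.03 to 14.5 CPM in cold, against 4.06 to 5.13 CPM in control leaves, and for LOC105056043 and LOC105056045 control replicate 2 lies far below the other two control libraries.

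In all, 1 of these 4 genes was higher in salinity, 1 was higher and 1 lower in waterlogging, 2 were lower in heat and 2 were higher in cold relative to control. Of all genes tested, 10.5% were called higher in salinity, 12.1% higher and 7.53% lower in waterlogging, 8.66% lower in heat and 13.1% higher in cold. The 3 genes with the largest drought increases had 3, 3, 2 and 0 higher and none lower in those contrasts. The study listed the 7 genes together on the drought contrast, and the split into 3 and 4 follows the size of the drought increase. All 4 of these contrasts share the control libraries with it, so the counts are no independent evidence of a direction.

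In the EG11 gene order, the 3 genes have 6 direct neighbours, of which 5 were tested and none overlaps its neighbour. LOC105044841, which lies next to LOC105044840 and was picked out after its values were seen, had the same calls as LOC105044840 in all 10 contrasts tested. Its libraries had 52.9, 52.3 and 67.0 CPM under drought, 65.5, 31.0 and 55.2 in salinity, 24.8, 56.6 and 61.1 in waterlogging, 15.4, 22.9 and 21.4 in heat, 5.76, 4.13 and 5.04 in cold, and 8.30, 6.38 and 6.33 in control leaves. Its log2FC against control was 2.85 (SE 0.33, adjusted p = 8.77e-06) in salinity, 2.76 (adjusted p = 8.6e-06) in waterlogging, 1.51 (adjusted p = 0.00114) in heat and −0.49 (adjusted p = 0.218) in cold, and its correlation with LOC105044840 was 0.977, the 18th highest. Whether reads are shared between the pair was not tested, and the sources used here do not give the strand setting of the counting.

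LOC105046003, next to LOC105046002 and also named after its values were seen, was higher than control in all 4 of these stresses, and none of the 6 contrasts among them called it. It averaged 111 ± 9.21 CPM under drought, 85.2 ± 16.5 in salinity, 84.0 ± 16.2 in waterlogging, 75.1 ± 9.22 in heat, 74.0 ± 0.850 in cold and 13.4 ± 1.25 in control leaves (SD, n = 3 each). Its log2FC in cold was 2.46 (SE 0.16, adjusted p = 1.8e-08) and in heat against cold 0.02 (SE 0.15, adjusted p = 0.921), where LOC105046002 had 1.40. The test of the difference between these neighbours was not run. LOC105046001, on the other side of LOC105046002, was called in waterlogging against control alone (log2FC 1.07, SE 0.17, adjusted p = 0.000132). LOC105044839, on the other side of LOC105044840, had no call. Its log2FC against control was −0.56 (SE 0.10, adjusted p = 0.000364) in salinity and −0.69 (SE 0.10, adjusted p = 5.13e-05) in waterlogging, and its correlation with LOC105044840 was −0.256. LOC105052313, next to LOC105052314, had no call either and a correlation of −0.386 with it.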

How the data were processed

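RNA of 18 leaf libraries (6 groups, 3 replicates each, grouped by their titles) was measured by RNA-seq. The authors filtered the reads, aligned them with TopHat2 to an oil palm reference genome in NCBI, allowing 2 mismatches, and counted them per gene with HTSeq, and the deposited counts are whole and not normalized. The authors also deposited FPKM, which are the same counts over a fixed gene length and the library total. The methods name that genome by its project, and the sources used here give no assembly version or strand setting. EG11 may therefore differ from it, and near-identical copies and overlapping genes cannot be told apart.

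Counts were analysed in R 4.3.3 with edgeR 4.0.16: filterByExpr (minimum count 10, total 15) left 23830 genes, libraries were scaled by TMM, and 1 quasi-likelihood model with 6 group terms (12 residual degrees of freedom, common biological coefficient of variation 0.215) gave all contrasts. A call needs a Benjamini-Hochberg adjusted p under 0.05 within the contrast and at least 2-fold. The SE is the log2FC over the square root of F, and log2 CPM used a prior count of 2. The p-values measure the spread between pools of seedlings. Overlap compares the ranges of the libraries of 2 groups, and the share of all genes without overlap was not counted. DESeq2 1.42.0 and limma 3.58.1 on log2(FPKM + 0.1) and log2(FPKM + 1) were alternatives. Deviations from group means of libraries with equal replicate numbers correlated over 0.1 in all 3 pairs of cold and control (0.105, 0.190 and 0.223) and in no other 2 groups. Values with the replicate number as a block, shared by all 6 groups, are therefore given beside that contrast. The labels state no pairing, and the SEs, intervals and calls of the main fit come from the group terms alone.

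The genes named are the 3, the other 4 of the term, and for each of the 3 the 3 genes most correlated with it. Other exceptions are stated. The genes, lists and tests were chosen with earlier results of these data known. Names came from an NCBI table for EG11, which matched 25941 of 29750 numbered genes. Gene numbers are written with the prefix LOC. Defense gene families by description and promoter motifs were not analysed here, and no sequence was used.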

Additional observations from a re-analysis of the deposited data

How the results depend on the processing

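All 3 genes kept the sign of each difference from control in every alternative. With library totals, limma on log2(FPKM + 0.1) and limma on log2(FPKM + 1), the median log2FC of the 3 was 3.12, 3.10 and 2.84 for drought against control (3.40 with TMM) and 2.55, 2.45 and 1.77 for drought against cold (3.12, and 2.94 to 3.39 leaving out 1 library), the number called in cold against control was 1, 1 and 1 (0, and 0 to 1 leaving out 1 library), and that in heat against waterlogging was 0, 0 and 0 (1, and 0 to 1 leaving out 1 library). With limma on log2(FPKM + 1), drought against heat had a median of 0.98 (1.39) and heat against cold 1 call (3). Salinity against heat had 1 to 3 calls leaving out 1 library (2). LOC105046002 in drought against salinity changed sign, at 0.09 without salinity replicate 1 (−0.24, and −0.40 to 0.09 leaving out 1 library). The cause of these shifts was not tested.

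Of the other 4 genes of the term, library totals and the 2 limma fits called 0, 0 and 0 under salinity (1 with TMM), 2, 2 and 1 for salinity against cold (0) and 1, 2 and 2 for cold against waterlogging (0). The limma fits called 1 and 1 under waterlogging (2), 0 and 1 under heat (2), and 0 and 0 for heat against waterlogging (1), and that with FPKM + 1 called 1 in cold (2) and 1 for heat against cold (2). DESeq2 called 1 under heat, and the 2 groups fitted alone gave 1 under waterlogging and 0 under heat. Leaving out 1 library gave 0 to 1 calls under salinity, 1 to 3 under waterlogging, 0 to 2 under heat, 0 to 1 for salinity against heat and 0 to 1 for cold against waterlogging.

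Over all genes, calls for salinity against waterlogging were 148, but 397 by DESeq2, 9 with those groups alone and 52 to 630 leaving out 1 library. The limma fit on FPKM + 1 called 3096 for heat against control (4796), 1932 for salinity against heat (3366) and 2298 for heat against waterlogging (3819). That on FPKM + 0.1 called 8446 for salinity against cold (5558) and 9914 for cold against waterlogging (5902, and 9464 with library totals). Library totals shifted the median of all genes to between −0.61 and 0.72, and the share of calls that were higher to 39.4% for drought, 38.4% for salinity, 28.9% for waterlogging, 45.3% for heat and 72% for cold against control (60.8%, 68.2%, 61.5%, 57% and 52.2%).

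The labels do not pair libraries of equal replicate number across groups, and their deviations gave little sign of pairing. In all, 12 of 45 pairs of libraries with the same number had deviations correlated over 0.1 (−0.272 to 0.259), and 6 of 18 libraries were closest to their own number. With the replicate number as a block, the 3 genes had 3 calls under salinity, 3 under waterlogging, 2 under heat and 0 in cold, the same calls as without it, and the other 4 genes had 1 under waterlogging (2) and 1 under heat (2). Depth limits LOC105052314 in cold, with as few as 36 reads.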
